A study of Mus musculus with 36 samples.

Results

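The genes carried by the mouse mitochondrial chromosome were examined in the left ventricle and atria of CUG960 mice, a heart model of myotonic dystrophy type 1 (DM1). They were taken as every symbol that begins with mt-, which gave 37 of the 55291 genes in the deposited tables: 13 protein-coding genes, 2 ribosomal RNA (rRNA) genes and 22 transfer RNA (tRNA) genes. The 13 protein-coding and the 2 rRNA genes had counts in all 36 libraries, and all 15 passed the filter on low counts. The 22 tRNA genes, 59 to 75 bases long, were listed at 0 in every library and are not described further.

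All mice carried TREDT960I (Hom)/ MHCrtTA (Hem). The first transgene encodes interrupted CTG repeats in a human DMPK context behind a tetracycline response element, and the second encodes the reverse tetracycline transactivator behind the cardiomyocyte-specific α-myosin heavy chain promoter, so CUG repeat RNA was made in cardiomyocytes when doxycycline (dox) was fed. CUG960 +dox mice received dox from postnatal day 1, –dox mice never received it, and +/–dox mice were taken off it at 9 weeks. The 3 further cohorts, named MBNL1, MBNL2 and MBNL1+MBNL2, remained on dox and were given, at 9 weeks, AAV9 with 3XFLAG-MBNL1, 3XMYC-MBNL2 or both, human cDNAs of splicing regulators that CUG repeat RNA sequesters, behind the heart-specific TNNT2 promoter. Hearts were collected at 21 weeks, 12 weeks after delivery or withdrawal, with 3 replicates for each of the 6 cohorts in each of the 2 tissues. The +dox cohort received no vector, and no cohort with a control vector is among these libraries. An effect of the vector and an effect of MBNL can therefore not be told apart. Dox is a tetracycline antibiotic, a class that binds bacterial ribosomes and can also act on mitochondrial ribosomes. No cohort received dox without the transgenes, so an effect of dox and an effect of the repeat RNA cannot be told apart in these libraries.

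Mitochondrial DNA is a small circle that encodes subunits of 4 of the complexes of oxidative phosphorylation and the RNAs needed to translate them. mt-Nd1, mt-Nd2, mt-Nd3, mt-Nd4, mt-Nd4l, mt-Nd5 and mt-Nd6 belong to complex I, mt-Cytb to complex III, mt-Co1, mt-Co2 and mt-Co3 to complex IV, and mt-Atp6 and mt-Atp8 to complex V, the ATP synthase. Each strand is transcribed as a long precursor that is cut mainly at its tRNAs, and most of the messages receive a poly(A) tail. The heart, which depends on oxidative metabolism, holds large amounts of these transcripts. Their other subunits, and all proteins that copy, transcribe, process and translate mitochondrial DNA, are encoded in the nucleus.

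On the plus strand of the annotated mitochondrial chromosome (GRCm38, GENCODE M21), the genes ran from mt-Rnr1 (chrM:70-1024) and mt-Rnr2 (chrM:1094-2675) through mt-Nd1 (chrM:2751-3707), mt-Nd2 (chrM:3914-4951) and mt-Co1 (chrM:5328-6872) to mt-Nd4 (chrM:10167-11544), mt-Nd5 (chrM:11742-13565) and mt-Cytb (chrM:14145-15288). All are single-exon genes without introns. mt-Nd6 (chrM:13552-14070) lay on the minus strand and shared 14 bases with mt-Nd5. Whether the counting used strand is not given in the sources used here, so reads of mt-Nd6 and reads of the transcript opposite to it may not have been separated. mt-Atp8 and mt-Atp6 shared 43 bases, and mt-Nd4l and mt-Nd4 shared 7 bases, on the same strand. The word message stands here for a single annotated protein-coding gene. Genes of these overlapping pairs need not lie on separate RNA molecules, although each was counted on its own. The last 15 bases of the annotated messages show the form these short genes take. In capitals is the stop codon, or the lone T that 3 of the messages end with and that the poly(A) tail completes to TAA.
mt-Nd1: ccaccatacataTAG
mt-Co1: gtaaaagtaaaaTAA
mt-Co3: attgatgaggatctT
mt-Nd4: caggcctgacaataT
mt-Cytb: taaaattatatccaT
The mt-Co3, mt-Nd4 and mt-Cytb sequences each ran 1 base past the last complete codon. The libraries were made from poly(A)-selected RNA, so the 2 rRNAs were measured only as far as that selection kept them.

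A second set of sequences decides how several values can be read. Of the 15 genes, 7 had a near-identical copy, annotated as an unprocessed pseudogene, on the minus strand of chromosome 1 between 24611535 and 24616197. Near-identical means at least 99% identity over at least 250 aligned bases. mt-Co2 matched Gm28661 over 681 bases, mt-Atp6 matched Gm10925 over 678, mt-Co3 matched Gm28437 over 783, mt-Nd4l matched Gm10222 over 294 and mt-Nd4 matched Gm28439 over 876, each without a mismatch. Only the pairs of mt-Nd3 with Gm28438 and of mt-Co1 with Gm29216 differed, by 1 base each, which is in capitals in the windows below. They are shown because these are the only bases in the aligned stretches that could assign a read to one member of the pair.
mt-Nd3: atTaacctgtacact
Gm28438: atCaacctgtacact
mt-Co1: ggaAttgttttatcca
Gm29216: ggaTttgttttatcca
Counted from 1 at the 5′ end of the mitochondrial transcript, the substitutions were T3C in mt-Nd3 and A1066T in mt-Co1.

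The deposited counts were divided within these pairs, and the division took most of the counts away from 4 of the mitochondrial genes. Of the counts of each pair, mt-Co2 held a median of 11.6%, mt-Atp6 11.5%, mt-Nd3 12.9% and mt-Co3 19.6% over the 36 libraries. Their nuclear copies therefore carried the larger part in every library, the highest shares for the mitochondrial gene being 13.7%, 13.6%, 18.1% and 23.3%. mt-Nd4l held between 59.97% and 83.4%, the widest range of the 7 genes. mt-Co1 held 94.2% to 98.6% and mt-Nd4 98.5% to 99.5%, so these genes were little affected. The ranges in ventricle and atria overlapped for each pair. The 7 copies together took 4.505% to 5.86% of all counts in ventricular libraries and 3.01% to 3.56% in atrial libraries. The levels of mt-Co2, mt-Atp6, mt-Nd3, mt-Co3 and mt-Nd4l are therefore uncertain, and values with each gene summed with its copy are given beside theirs where they matter.

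**Figure D1:**
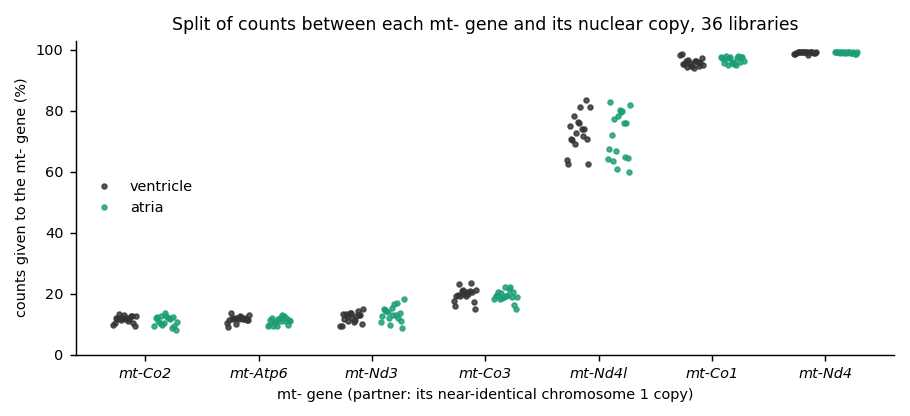
Share of the counts of each pair (y axis, %) that was given to the mitochondrial gene (x axis), with 1 point for each of 18 ventricular (black) and 18 atrial (green) libraries. mt-Co2, mt-Atp6, mt-Nd3 and mt-Co3 lie at or below 23.3%, mt-Nd4l lies between 59.97% and 83.4%, and mt-Co1 and mt-Nd4 lie above 94%.

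The libraries held 55031987 to 97091184 expected counts. Atrial and ventricular marker genes separated the tissues as labelled: the 5 atrial markers summed to 17442 to 26652 CPM (counts scaled to a common library total) in atria against 48.4 to 491 in ventricle, and the 4 ventricular markers to 8260 to 11496 in ventricle against 15.5 to 280 in atria. Summed over 9 cardiomyocyte markers the ranges overlapped (57127 to 71273 in ventricle, 52117 to 72474 in atria), whereas 7 fibroblast markers summed to 2033 to 3629 in ventricle and 4797 to 7275 in atria. Leukocyte markers summed to 75.8 to 146 in ventricle and 172 to 299 in atria, and red blood cell markers to 33.0 to 1468 and 70.3 to 871. These marker sums are CPM by library totals, and their part in the differences between tissues was not tested. Fewer cells of a type and less RNA per cell cannot be told apart in such tissue samples. Library names formed 2 sets, one with replicates 1 and 2 of 5 cohorts and the other with their replicate 3 and all MBNL1+MBNL2 libraries. Xist, the transcript of the inactive X chromosome, had 12586 to 34539 counts in the 10 replicate 3 libraries of those 5 cohorts and 17 to 120 in the other 26, so library set and sex cannot be told apart within them. The paper lists all MBNL1+MBNL2 animals as male. The part of its pair that mt-Nd4l held followed the sets. In ventricle it was 62.5% to 73.935% in the first set and 73.97% to 83.4% in the second. In atria it was 59.97% to 75.89% and 75.86% to 83.1%. Comparisons of mt-Nd4l from its own counts carry this difference where the sets are unequal. Ventricular MBNL1 replicate 1 stood apart in the number of genes with counts, 16885 against 20578 to 24041 in the other 35 libraries, and without it edgeR still called 0 mitochondrial genes in MBNL1 against +dox.

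The mitochondrial genes took up a larger part of the RNA in ventricle than in atria. Their share of all expected counts was 15.7% ± 0.957 (SD, n = 18) in ventricle and 9.59% ± 0.401 (SD, n = 18) in atria. The lowest ventricular library, at 14.4%, lay above the highest atrial library, at 10.3%. The ratio of the 2 means was 1.64. Within the first library set the shares of the 5 cohorts ran from 14.4% to 17.9% in ventricle and from 9.32% to 10.2% in atria, and within the second from 14.5% to 16.1% and from 9.03% to 10.3%, so the tissues were separate in each. TPM are the deposited values, which are meant to correct counts for transcript length and are scaled to a fixed total. As a share of summed TPM, the means were 29.2% and 21.1%, a ratio of 1.38. mt-Atp8 had the highest mean TPM of the 15 genes in both tissues, 73774 in ventricle and 53306 in atria. Its TPM is an uncertain measure of its level, as described below, so the TPM shares are uncertain too. With the 7 nuclear copies added to the counts, the mean shares were 20.9% and 12.8%.

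Among the cohorts of 1 tissue the shares were close. In ventricle the +dox libraries held 14.9% to 15.9% and the –dox libraries 16.1% to 17.9%, without overlap, while the +/–dox libraries, at 14.8% to 16.5%, overlapped with both. The MBNL1 libraries held 14.5% to 16.9%, the MBNL2 libraries 14.4% to 14.998% and the MBNL1+MBNL2 libraries 14.98% to 16.4%. In atria the +dox range of 9.39% to 10.1% overlapped with that of every other cohort, the –dox range being 9.31% to 10.2%. The TPM share did not separate ventricular –dox (28.6% to 31.3%) from +dox libraries (28.5% to 31.7%). The total shares of –dox and +dox ventricles were thus apart in counts and not in TPM.

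**Figure D2:**
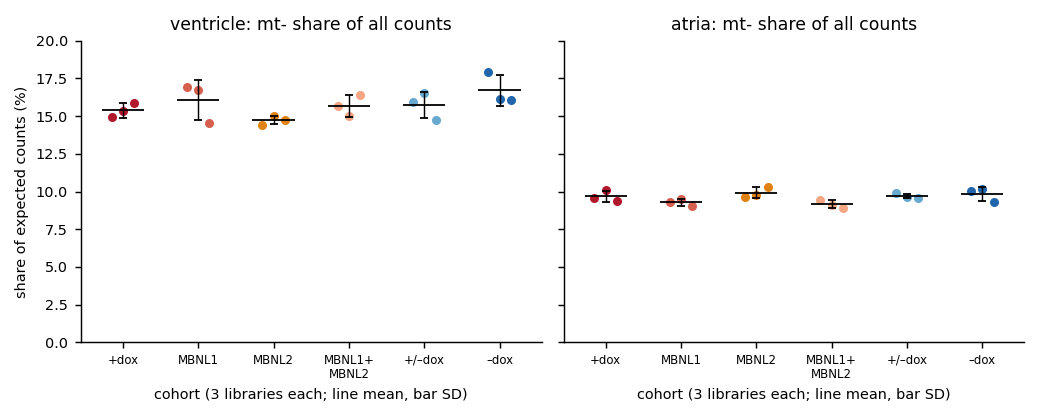
Share of all expected counts held by the mitochondrial genes (y axis, %) in each library of the 6 cohorts (x axis) in ventricle (left) and atria (right). Points are libraries, lines means and bars SD of 3; the 18 ventricular libraries lie between 14.4% and 17.9% and the 18 atrial libraries between 8.91% and 10.3%.

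Levels of different genes were compared only in TPM, which is meant to correct for length. mt-Co1, a catalytic subunit of complex IV, had a median of 59700 TPM in ventricle (54973 to 72879) and 39158 in atria (36186 to 46550). mt-Atp8 had 69697 TPM in ventricle (56902 to 112360) and 53889 in atria (38075 to 67332), although it held only 0.578% of the counts of the 13 messages in ventricle. It is the shortest of the 13, at 204 bases, and its TPM range overlapped with that of mt-Co1 in both tissues. Over all libraries mt-Atp8 had 1877395 counts, against 132902610.5 for mt-Co1 at 1545 bases. Its mean TPM was nevertheless higher, at 63540 against 51250. Division by the annotated lengths does not give that order, so the TPM of mt-Atp8 is an uncertain measure of its level. The same holds for mt-Nd4l, at 297 bases, beside mt-Nd4. mt-Cytb followed with 29928 TPM in ventricle (26738 to 34291) and 24213 in atria (20941 to 27214), and mt-Nd4l with 25715 (22278 to 30665) and 19996 (16380 to 22328). In ventricle mt-Nd4 (median 20191 TPM), mt-Nd1 (17294) and mt-Nd2 (16162) had overlapping ranges, followed by mt-Co3 (10637), mt-Nd5 (10159) and mt-Nd6 (8907), which also overlapped. The lowest messages were mt-Co2 (5371), mt-Atp6 (4832) and mt-Nd3 (1537), which are 3 of the 4 whose counts went mainly to a nuclear copy. The rRNAs were at 2669 TPM for mt-Rnr1, the small-subunit rRNA, and 2922 for mt-Rnr2, the large-subunit rRNA, with overlapping ranges.

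The comparison of the 2 tissues, averaged over the 6 cohorts, was fitted with the quasi-likelihood test of edgeR on counts scaled by trimmed mean of M values (TMM). A gene was called when its Benjamini-Hochberg adjusted p was below 0.05 and its fold at least 1.5. All 15 mitochondrial genes were called higher in ventricle, where 31.7% of the 19231 genes tested were called, 14.5% higher and 17.3% lower. On the log2 scale the median difference of the 15 was 0.94, against -0.03 for all genes tested, and TMM-scaled CPM, used from here on, of 14 of the 15 did not overlap between the 18 ventricular and 18 atrial libraries, where 16.5% of all genes were separate in this way.

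Among the messages mt-Co1 differed most, with a median of 70234 CPM in ventricle (60680 to 90863) and 33235 in atria (28192 to 39839). The fitted difference was 1.09 ± 0.03 (SE) on the log2 scale, a 2.13-fold higher level (adjusted p = 2.72e-23). mt-Nd1 was 1.04 ± 0.04 higher, with 11217 CPM (9160 to 17884) in ventricle against 5426 (4615 to 7190) in atria. At the other end stood mt-Nd3, at 0.77 ± 0.08, and mt-Nd6, at 0.84 ± 0.04. mt-Cytb, the complex III subunit, differed by 0.85 ± 0.03 and mt-Nd5 by 0.84 ± 0.04. With their copies added, mt-Nd3, mt-Co3, mt-Atp6 and mt-Co2 came to 0.90, 0.89, 0.94 and 0.98.

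The rRNAs were not alike. mt-Rnr1 was 1.64 ± 0.06 higher in ventricle on the log2 scale, a 3.13-fold difference (adjusted p = 2.05e-20), with 1664 CPM (1091 to 2171) against 532 (395 to 727). mt-Rnr2 was 1.07 ± 0.05 higher, with 3386 CPM (2544 to 5263) against 1590 (1211 to 2373). The genes lie side by side on the plus strand. How the poly(A) selection acted on either was not measured.

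The size of these tissue differences moved with the scaling. With library totals in place of TMM, the median of all genes shifted by -0.28 and 11 of the 15 stayed above the fold of 1.5. In limma on log2(TPM + 1), where the median of all genes shifted by -0.26, the differences ran from 0.28 for mt-Nd3 to 1.15 for mt-Rnr1, and only mt-Rnr1 and mt-Co1 (0.59) reached the fold. All 15 kept the direction and an adjusted p below 0.05 under both.

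**Figure D3:**
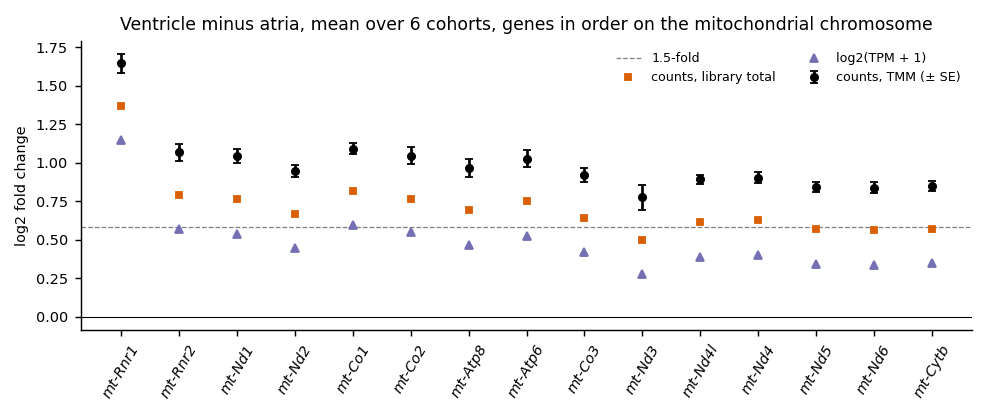
Log2 fold change of ventricle over atria, averaged over 6 cohorts (y axis), for the 15 genes in chromosome order (x axis). Black points with SE bars are TMM-scaled counts, squares counts scaled by library total and triangles log2(TPM + 1); every point lies above 0, from 0.28 to 1.64, and the dashed line marks 1.5-fold.

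The make-up of the counts of the 13 protein-coding genes also differed between the tissues. Each library's counts of the 13 were set to 100%, which needs no scaling between libraries but ties the members, since a larger share of one lowers the others. mt-Co1 held 42.5% in ventricle and 39.3% in atria, a difference of 3.12 percentage points, and mt-Nd1 6.90% and 6.61%. mt-Cytb held 14.6% in ventricle and 16.1% in atria, mt-Nd5 8.43% and 9.27%, mt-Nd4 12.0% and 12.7%, and mt-Nd6 1.37% and 1.51%. In a two-sided permutation test (100000 resamples, tissues permuted within cohorts, adjusted over the 13), these 6 members, mt-Nd3 and mt-Nd4l passed. The raw p was 1e-05, the smallest these permutations can give, for mt-Co1, mt-Nd4, mt-Nd5, mt-Nd6 and mt-Cytb, and the adjusted p was 0.0172 for mt-Nd1. The share of mt-Nd1 no longer passed without replicate 1 (0.194 points, adjusted p = 0.183) or without replicate 2 (0.298 points, adjusted p = 0.115) of each group, in the same permutation test. The shares of mt-Nd2, mt-Co2, mt-Atp8, mt-Atp6 and mt-Co3 missed the threshold (adjusted p from 0.117 to 0.802). With copies summed mt-Co3 passed too, with a share 0.659 points lower in ventricle (permutation test, adjusted p = 2.17e-05), and mt-Nd3 did not (adjusted p = 0.107).

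Nuclear genes of the same complexes also stood higher in ventricle. Over all genes 14.5% were called higher and 17.3% lower in this comparison. Of the nuclear subunits listed, 23 of 36 for complex I were called higher (median log2 difference 0.73), 7 of 9 for complex III (0.84), 8 of 12 for complex IV (0.69) and 12 of 17 for complex V (0.64), and none was called lower. Of the genes that process and turn over mitochondrial RNA, 9 of 28 were called higher. Among them Lrpprc, which binds and stabilises mitochondrial messages, was 0.90 ± 0.03 higher (adjusted p = 4.50e-22), and its partner Slirp, at 0.34 ± 0.05, did not reach the fold. Of the 11 genes for mitochondrial transcription 3 were called higher, with Polrmt, the mitochondrial RNA polymerase, at 0.64 ± 0.04. Tfam, which packages mitochondrial DNA and starts transcription, was at 0.26 ± 0.03 and Ppargc1a, a coactivator of mitochondrial biogenesis, at 0.08 ± 0.03, both under the fold. Of the translation factors 7 of 13 and 3 of 12 biogenesis regulators were called higher, and of 15 replication genes 1 was called higher and 2 lower.

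The next comparison asked how the mitochondrial genes stood in mice that never received dox. In ventricle, –dox against +dox, 2 of the 15 were called, both higher, in a comparison in which 7.6% of all genes were called, 3.47% higher and 4.13% lower. They were mt-Rnr2 and mt-Nd1, which are neighbours on the plus strand, separated only by tRNA sequence. mt-Rnr2 had 2774, 2895 and 2915 CPM in the +dox libraries and 5263, 4772 and 4036 in the –dox libraries. The fitted log2 difference was 0.71 ± 0.13, or 1.64-fold (adjusted p = 0.000138). mt-Nd1, a core subunit of the membrane arm of complex I, had 9750, 10030 and 9374 CPM in +dox and 17884, 14765 and 12811 in –dox libraries. The groups of neither gene overlapped, and mt-Nd1 differed by 0.64 ± 0.11, or 1.56-fold (adjusted p = 4.58e-05). Without –dox replicate 1, the highest library, mt-Nd1 was at 0.50 and fell short of the fold (adjusted p = 0.00142), as it did with library totals in place of TMM (0.56) and in limma on log2(TPM + 1) (0.58).

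Replicate 3 of each group came from the second library set, and in it, as in the first, the –dox libraries lay above the +dox libraries for both genes.

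By the adjusted p alone, which 9.64% of all genes passed as higher and 11.3% as lower, mt-Co1 and mt-Atp6 were higher as well. mt-Co1 had 65040, 69656 and 70266 CPM in +dox and 90863, 85001 and 77816 in –dox ventricles, without overlap, and differed by 0.31 ± 0.08 on the log2 scale (adjusted p = 0.00793). mt-Atp6 was 0.48 ± 0.13 higher (adjusted p = 0.0104), its libraries overlapped, and its sum with the copy was 0.28 higher (adjusted p = 0.0200). Without +dox replicate 3 the fitted value for mt-Atp6 was 0.67 (adjusted p = 0.000511), past the fold. Of the other members downstream of mt-Co1 on the plus strand, mt-Co2, mt-Co3 and mt-Nd3 were at 0.19, 0.16 and 0.20 and mt-Atp8 at -0.02, and mt-Nd4l, mt-Nd4, mt-Nd5 and mt-Cytb were at -0.16, -0.07, 0.02 and 0.00, none past the test. mt-Nd2, between mt-Nd1 and mt-Co1, was at 0.09 ± 0.09. mt-Rnr1, upstream of mt-Rnr2 and without a near-identical copy, was at 0.26 in the edgeR fit with copies summed (adjusted p = 0.228). CPM of 5 of the 15 did not overlap between –dox and +dox ventricles, 4 above and mt-Nd4l below, where 33.6% of all genes were separate in this way.

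In atria the same contrast called mt-Rnr2 alone, where 5.23% of all genes were called, 2.83% higher and 2.4% lower. Its CPM were 1409, 1588 and 1216 in +dox and 2338, 2328 and 1953 in –dox atria, without overlap, and the difference was 0.65 ± 0.13 (adjusted p = 0.000541). Without +dox replicate 3 it was at 0.56 and under the fold (adjusted p = 0.00669). mt-Nd1 passed the adjusted p alone at 0.35 ± 0.11 (adjusted p = 0.0222), with 5408, 5494 and 4862 CPM in +dox and 7190, 7059 and 5791 in –dox atria. mt-Nd4l, a small membrane subunit of complex I, passed it as lower, at -0.31 ± 0.08 (adjusted p = 0.00579), but its sum with Gm10222 was at -0.25 (adjusted p = 0.1003). By that criterion 7.3% of all genes were higher and 8.62% lower.

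The +/–dox cohort asked how the genes stood 12 weeks after dox was withdrawn. In +/–dox against +dox ventricles the edgeR test called 0 of the 15, where 6.6% of all genes were called, 3.09% higher and 3.52% lower, while 6 had an unadjusted p below 0.05 and DESeq2 and limma also called 0. mt-Nd1 passed the adjusted p alone at 0.47 ± 0.11 (adjusted p = 0.00157), with 13754, 14641 and 12042 CPM, all above the +dox libraries. mt-Co3 (0.41, adjusted p = 0.00453) and mt-Atp6 (0.38, adjusted p = 0.0371) also passed, but summed with their copies they were at 0.11 (adjusted p = 0.305) and 0.20 (adjusted p = 0.0988). With copies summed mt-Co1 passed instead, at 0.23 (adjusted p = 0.0384), against 0.20 (adjusted p = 0.0843) from its own counts. mt-Rnr2 was at 0.29 ± 0.13 (adjusted p = 0.104). mt-Rnr1, whose +/–dox libraries all lay below the +dox libraries, was at -0.20 in the fit with copies summed (adjusted p = 0.359). By this criterion 10.6% of all genes were higher and 11.1% lower.

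In +/–dox against +dox atria mt-Rnr2 was called, where 3.99% of all genes were called, 2.01% higher and 1.98% lower. It had 2217, 2373 and 1863 CPM in +/–dox atria, all above the +dox range, and differed by 0.62 ± 0.13 (adjusted p = 0.00131). The call was lost, with the direction kept, without +dox replicate 3 (0.52), without +/–dox replicate 2 (0.52), with library totals (0.55) and in TPM (0.55). mt-Nd1 was at 0.32 ± 0.11 (adjusted p = 0.0422), with 6534, 6971 and 6177 CPM, and so passed the adjusted p alone, as 5.4% of all genes did as higher. In the edgeR fit with copies summed, atrial mt-Rnr1 was at 0.24 in –dox (adjusted p = 0.297) and 0.25 in +/–dox (adjusted p = 0.292) against +dox. Comparisons of –dox and +/–dox with +dox share the +dox libraries, so the likeness of their values is not independent.

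Set directly against each other, –dox and +/–dox gave no call among the 15 in either tissue in edgeR, DESeq2 or limma, with an unadjusted p below 0.05 for 3 in ventricle and 2 in atria. Few genes of any kind were called there, 0.0312% in ventricle and 0.0104% in atria. mt-Rnr1 and mt-Rnr2 were at 0.46 ± 0.15 (adjusted p = 0.366) and 0.42 ± 0.13 (adjusted p = 0.322) in ventricle, and mt-Co3 at -0.34 ± 0.10 (adjusted p = 0.684) in atria. An interaction term compared the –dox against +dox difference of ventricle with that of atria. It called 0 of the 15 in edgeR, DESeq2 and limma, where 0.764% of all genes were called, with 1 unadjusted p below 0.05. The interaction values were 0.29 ± 0.15 for mt-Nd1 and 0.06 ± 0.18 for mt-Rnr2, higher values meaning a larger difference in ventricle.

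**Figure D4:**
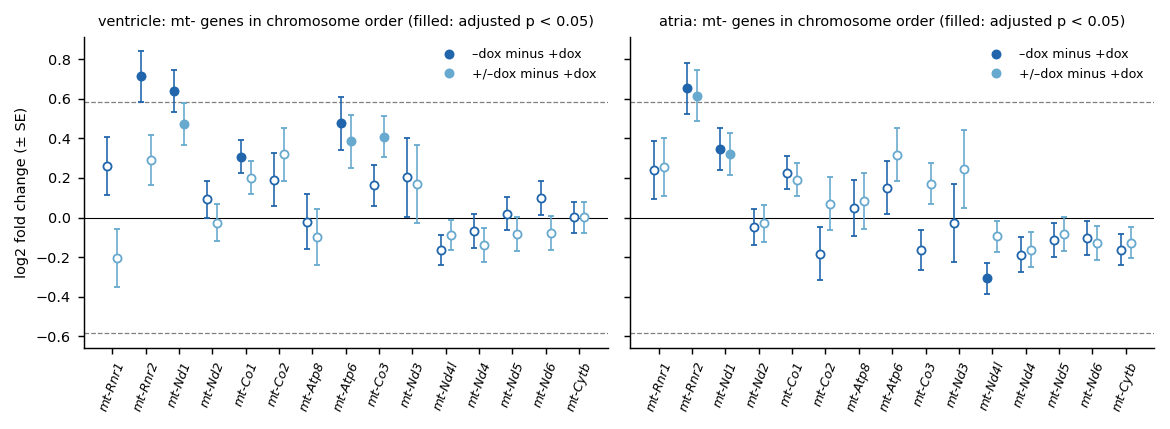
Log2 fold change against +dox (y axis, with SE) of the 15 genes in chromosome order (x axis) for –dox (dark) and +/–dox (light), in ventricle (left) and atria (right). Filled points have an adjusted p below 0.05 and dashed lines mark 1.5-fold; mt-Rnr2 and mt-Nd1 reach 0.71 and 0.64 in –dox ventricle, while mt-Nd4 and mt-Cytb lie between -0.19 and 0.00 in all 4 series.

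The MBNL cohorts, which stayed on dox, gave no call among the 15 in either tissue in edgeR, DESeq2 or limma. In ventricle 2.66% of all genes were called in MBNL1 against +dox, 1.52% in MBNL2 and 2.65% in MBNL1+MBNL2. Unadjusted p values were below 0.05 for 5, 2 and 3 of the 15. mt-Atp6 passed the adjusted p alone in MBNL1, at 0.49 (adjusted p = 0.0197), where 4% of all genes passed as higher. It passed also in MBNL1+MBNL2, at 0.44 (adjusted p = 0.0365), with mt-Rnr2 at 0.40 (adjusted p = 0.0441), beside 3.17% of all genes as higher. mt-Atp6 is 1 of the genes with an identical nuclear copy, and without +dox replicate 3, its highest +dox library at 1913 CPM, it passed the fold in both cohorts (0.69 and 0.64). Without that replicate, +dox held only libraries of the first set and MBNL1+MBNL2 only libraries of the second. The 0.64 can therefore not be told apart from a difference between library sets. With all libraries the sets were still unequal, since +dox replicates 1 and 2 came from the first. The 0.44 of mt-Atp6 and the 0.40 of mt-Rnr2 in MBNL1+MBNL2 carry that imbalance too. The cause of these shifts was not tested. Summed with its copy, and with all libraries, mt-Atp6 was at 0.23 (adjusted p = 0.103) in MBNL1 and 0.21 (adjusted p = 0.160) in MBNL1+MBNL2. mt-Nd1, which was higher off dox, was at 0.23 ± 0.11 in MBNL1, -0.03 ± 0.11 in MBNL2 and 0.16 ± 0.11 in MBNL1+MBNL2, none past the test.

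Without MBNL1 replicate 3 mt-Atp6 was likewise past the fold in MBNL1 (0.60, adjusted p = 0.00975). In ventricular MBNL2 all of mt-Co1, mt-Nd4, mt-Nd4l and mt-Atp8 lay below the +dox libraries, in a comparison in which 27.8% of all genes were separate. None of these 4 passed the test, with values from -0.35 for mt-Atp8 to -0.13 for mt-Co1. Summed with its copy, mt-Nd4l was at -0.33 in this cohort (adjusted p = 0.0497), lower by the adjusted p alone, as were 4.31% of all genes from their own counts. In atria the 3 vector cohorts called 0.13%, 0.0052% and 0.26% of all genes, and 1, 0 and 0 of the 15 had an unadjusted p below 0.05. The largest value among the messages there was 0.27 ± 0.13 for mt-Atp6 in MBNL1+MBNL2 (adjusted p = 0.514).

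The proportions among the 13 messages separated the cohorts on dox from those off dox for 4 members in both tissues, without overlap of libraries. For this description the 4 cohorts that were on dox at collection (12 libraries a tissue) were set beside the 2 that were off it (6 libraries), a grouping chosen after values were seen and given without a test. Shares were taken with each gene summed with its copy. mt-Nd1 held 4.22% to 5.29% of the counts on dox and 5.60% to 6.61% off dox in ventricle, and 4.42% to 4.72% and 5.37% to 5.80% in atria. mt-Co1 held 29.7% to 33.2% on dox and 34.6% to 35.98% off dox in ventricle, and 28.4% to 29.7% and 31.8% to 32.9% in atria. Both shares were thus higher off dox in both tissues.

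The shares of mt-Nd4 and mt-Cytb were lower off dox. mt-Nd4, a core proton-pumping subunit of complex I, held 8.88% to 10.2% on dox and 8.10% to 8.36% off dox in ventricle, and 9.49% to 10.3% and 8.32% to 8.93% in atria. mt-Cytb held 11.1% to 11.7% on dox and 9.55% to 10.7% off dox in ventricle, and 12.2% to 12.8% and 10.4% to 11.2% in atria. These 4 members separated completely in both tissues, with copies summed and in the deposited counts alone. In atria mt-Nd2, mt-Nd5 and mt-Nd6 were also lower off dox without overlap, the first only with copies summed. In ventricle the other 9 members overlapped, and mt-Co2, mt-Atp8, mt-Atp6, mt-Co3, mt-Nd3 and mt-Nd4l overlapped in both tissues.

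In shares of TPM, in which mt-Atp8 weighs heavily, only mt-Nd1 and mt-Co1 separated in both tissues, and mt-Nd4 and mt-Nd4l in atria. By contrast, CPM of 0 of the 15 in ventricle and of 2 in atria, mt-Nd1 and mt-Rnr2, separated the cohorts in this grouping, where 1.92% and 7.06% of all genes did.

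Ratios of 2 members within a library do not depend on any scaling or on the other members. The ratio of mt-Nd1 to mt-Nd4 counts was 0.429 to 0.555 on dox and 0.682 to 0.795 off dox in ventricle, and 0.438 to 0.497 and 0.612 to 0.682 in atria. For mt-Co1 to mt-Cytb it was 2.56 to 2.95 and 3.23 to 3.77 in ventricle, and 2.21 to 2.42 and 2.89 to 3.14 in atria. Neither ratio overlapped in either tissue. Each of these ratios set a member whose share was higher off dox, without overlap, over one whose share was lower. Their separation in the same libraries therefore follows from those shares and is not further evidence. The ratio of mt-Rnr2 to mt-Nd4 separated the groups in atria, at 0.108 to 0.155 on dox and 0.191 to 0.222 off dox, but overlapped in ventricle (0.129 to 0.195 and 0.169 to 0.241).

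**Figure D5:**
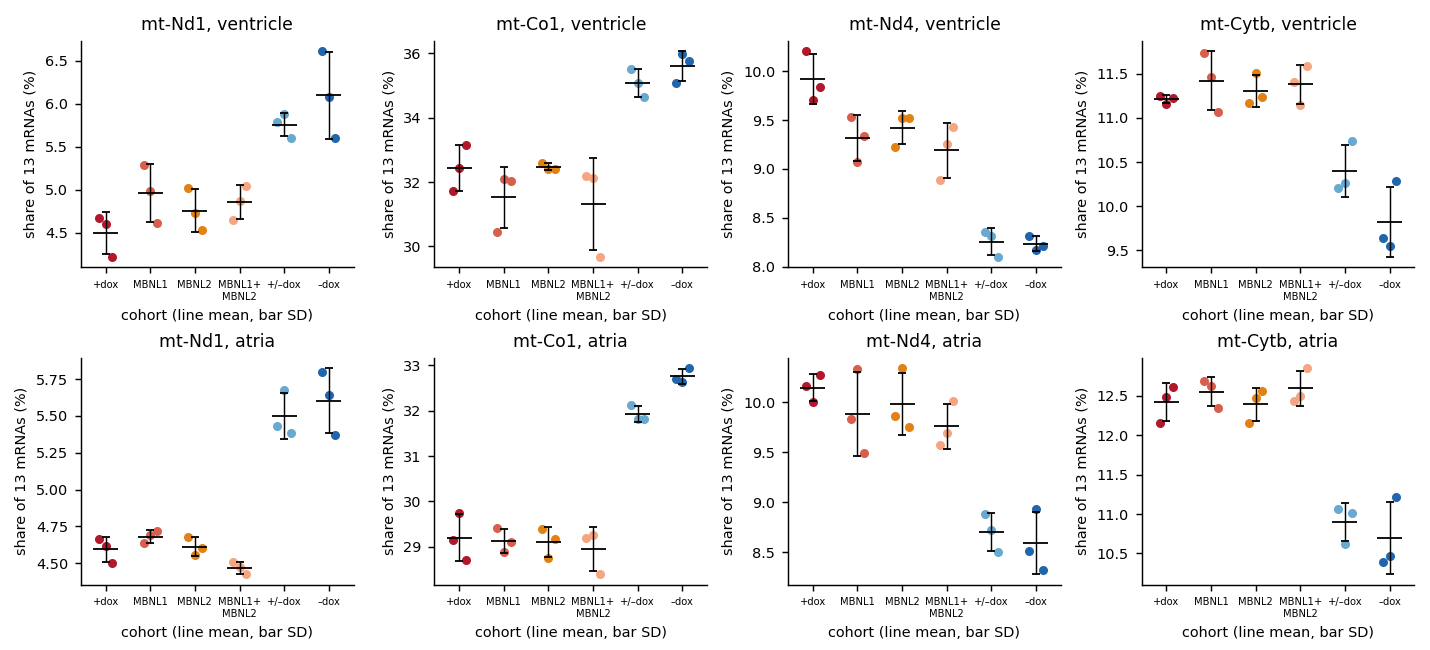
Share of the counts of the 13 messages, copies summed (y axes, %, not starting at 0), held by mt-Nd1, mt-Co1, mt-Nd4 and mt-Cytb in each library of the 6 cohorts (x axis), ventricle above and atria below. Points are libraries, lines means and bars SD of 3; the +/–dox and –dox libraries lie apart from the other 12 in all 8 panels, for example at 5.37% to 5.80% against 4.42% to 4.72% for mt-Nd1 in atria.

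Within the cohorts on dox, the ventricular shares of mt-Nd4 lay below those of +dox in each vector cohort: 9.71% to 10.2% in +dox, 9.07% to 9.53% in MBNL1, 9.23% to 9.52% in MBNL2 and 8.88% to 9.43% in MBNL1+MBNL2. mt-Nd4l showed the same order of groups, at 1.29% to 1.42% in +dox and at 1.08% to 1.25% over the 3 vector cohorts. These separations depended on the quantity: in the deposited counts without copies mt-Nd4l overlapped with +dox in all 3 vector cohorts and mt-Nd4 in MBNL1, and in TPM mt-Nd4 overlapped in all 3 while mt-Nd4l stayed below. The ratio of mt-Nd1 to mt-Nd4 was 0.429 to 0.474 in +dox ventricle and lay above it in MBNL1 (0.494 to 0.555), MBNL2 (0.476 to 0.544) and MBNL1+MBNL2 (0.524 to 0.535), all below the cohorts off dox. All 3 comparisons use the same 3 +dox libraries. mt-Nd4 and mt-Nd4l overlap on the same strand, so their like order need not be 2 independent observations. Counting both, the ventricular shares with copies summed of 3 genes lay below +dox and of 1 above it in MBNL1. In MBNL2 the shares of 4 genes lay below +dox, and in MBNL1+MBNL2 those of 2. CPM of 23.2%, 27.8% and 22.5% of all genes were separate from +dox in ventricular MBNL1, MBNL2 and MBNL1+MBNL2. Separation of 3 libraries from 3 was thus frequent in CPM, which is a different measure from these shares. The separation of mt-Nd4 and mt-Nd4l is therefore given only as a description. In atria mt-Nd4 overlapped between +dox (10.01% to 10.3%) and each vector cohort (9.49% to 10.3% over the 3). Shares of mt-Cytb in +dox ventricle, at 11.2% in each library after rounding, overlapped with those of the vector cohorts. With 3 libraries against 3 an exact permutation test of a single share could not give a p below 0.1, so none was run.

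Nuclear genes for mitochondrial RNA and for the same complexes did not reach the fold of 1.5 with an adjusted p below 0.05 in –dox against +dox. Of the 153 listed genes for replication, transcription, RNA processing, translation, biogenesis and the nuclear subunits, none was called by edgeR in –dox against +dox in either tissue, where 7.6% of all genes were called in ventricle and 5.23% in atria. By the adjusted p alone 24 were higher and 8 lower in ventricle, as were 9.64% and 11.3% of all genes. Lrpprc had 146 to 162 CPM in +dox and 184 to 218 in –dox ventricles and differed by 0.43 ± 0.08 (adjusted p = 0.000113), with 0.21 ± 0.08 in atria (adjusted p = 0.0607). Polrmt was at 0.42 ± 0.11 in ventricle (adjusted p = 0.00539) and 0.17 ± 0.11 in atria (adjusted p = 0.329). Tfam, Slirp and Ppargc1a were at 0.11, -0.14 and 0.20 in ventricle, none past the test.

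In +/–dox ventricle Lrpprc (0.32, adjusted p = 0.00273) and Polrmt (0.53, adjusted p = 0.000653) were higher and Slirp (-0.41, adjusted p = 0.0150) was lower by the adjusted p alone. Polrmt was also higher by that criterion in ventricular MBNL1 (0.43, adjusted p = 0.0116), MBNL2 (0.38, adjusted p = 0.0286) and MBNL1+MBNL2 (0.35, adjusted p = 0.0413). Its +dox libraries, shared by the 3 comparisons, ran from 23.0 to 32.0 CPM. In the same 3 cohorts Lrpprc did not pass (0.16, -0.10 and -0.04). Slirp was at -0.51 in ventricular MBNL1 (adjusted p = 0.00886) and Ppargc1a at -0.30 in MBNL2 (adjusted p = 0.0256), both lower by the adjusted p alone.

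Markers of cell types moved with the dox contrast in part. All 7 endothelial markers were higher in –dox than in +dox ventricle by the adjusted p alone, which 9.64% of all genes passed as higher, with summed levels of 931 to 1096 against 757 to 799 CPM by library totals, and Tie1, an endothelial receptor, was called (0.67, adjusted p = 1.25e-05). In atria the sums were 755 to 872 and 622 to 637. Of 9 cardiomyocyte markers Ryr2, the calcium release channel, was called in ventricle (0.96, adjusted p = 2.23e-11) and atria (0.69, adjusted p = 2.05e-08), and Pln, which restrains the calcium pump, in atria (0.93, adjusted p = 3.20e-07). The paper also reports Ryr2 as lower in +dox than in –dox mice in both tissues, so it is not read here as a measure of cell content. Endothelial sums in +/–dox ventricle were 916 to 960, and cardiomyocyte sums there 70011 to 71273, above those of +dox. The cardiomyocyte sums overlapped in –dox ventricle (59180 to 66037 in +dox, 61891 to 67319 in –dox) and did not in atria (59370 to 63663, 63754 to 65005). Fibroblast sums were 2033 to 2523 and 2110 to 2421 in ventricle. Cidea, an adipocyte marker, was called in ventricle (0.59, adjusted p = 0.0307) while the adipocyte markers summed to 8.31 to 29.1 CPM by library totals there. One of the 6 adipocyte markers was at 0 in all 3 libraries of each of these ventricular groups, and no cardiomyocyte, endothelial or fibroblast marker was. The part of these shifts in the mitochondrial values was not tested.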

How the data were processed

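The authors extracted RNA with an integrity number of at least 8.0, made stranded poly(A)-selected libraries from 250 ng and sequenced paired 150-base reads. They aligned them with STAR 2.7.10b to mm10 and quantified GENCODE M25 genes with RSEM 1.3.1. The deposited values are expected counts, which RSEM shares among genes when a read fits several, and TPM.

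Groups followed the labels. Expected counts were rounded and tested with the quasi-likelihood test of edgeR 4.0.16 in R 4.3.3 (robust, TMM, filterByExpr, 12 group means), on 19231 genes in 36 libraries, with Benjamini-Hochberg adjustment over all of them. Replicates are separate samples by label, and both tissues came from the same animals, but replicate numbers are tied to animals only for replicate 3 of 5 cohorts (the 1 female, by Xist), so p-values measure the spread between these samples. The common dispersion of 0.0303 is a biological coefficient of variation of 17.4%. CPM of single genes are TMM-scaled, and sums over markers use library totals. TPM were tested with limma 3.58.1 on log2(TPM + 1), and DESeq2 1.42.0 was an alternative. On simulated counts edgeR recovered 37 of 100 genes changed 1.5-fold and 56 of 100 changed 2-fold by the call rule, with 9 false calls among 19231. Copies were found with BLAST+ 2.17.0 among GENCODE M21 transcripts. All mt- genes were named, Lrpprc, Slirp, Tfam, Polrmt and Ppargc1a always, and other listed genes when called in –dox against +dox. Members, lists and tests were chosen with earlier results of these data known, and the sums with copies and the grouping by dox at collection were added after values were seen.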

Additional observations from a re-analysis of the deposited data

How the results depend on the processing

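No log2 fold change of a single gene that passed the adjusted p, as reported or under the alternative, changed sign. Of 3885 recomputed values 192 did, each with a log2 difference of at most 0.24 as reported, and 18 of these came with copies added to the counts (mt-Co2 in –dox atria, for example). Against +dox, the number of the 15 genes called by the adjusted p alone was 4 in –dox, 3 in +/–dox, 1 in MBNL1 and 2 in MBNL1+MBNL2 ventricle, and 3 in –dox and 2 in +/–dox atria. By the adjusted p and the fold together, library totals in place of TMM gave 1 call in –dox ventricle, where mt-Nd1 was lost, and 0 in +/–dox atria. limma on log2(TPM + 1) likewise gave 1 and 0 by both criteria, with 2 for ventricle against atria. Leaving out 1 library at a time gave 1 to 3 calls in –dox ventricle, 0 to 1 in MBNL1 and MBNL1+MBNL2 ventricle, and 0 to 1 in –dox and +/–dox atria. The mean share of mitochondrial genes in TPM was 30.0% in +dox and 30.1% in –dox ventricle, and 21.8% and 21.3% in atria, where the count share was 9.67% and 9.85%, the other way round. With copies added to the counts the mean shares were 20.4% and 22.1% in ventricle, and 12.9% and 13.2% in atria. Of the 13 within-library shares, 8 differed between tissues with all libraries and 5 to 10 with 1 replicate left out, the lowest without replicate 1. The causes were not tested. For single genes, 3856 of the recomputed log2 fold changes kept their side of the call, 25 fell below it and 4 rose above it. With the replicate number as a block the calls were 2 in –dox ventricle, 1 in –dox and 1 in +/–dox atria and 15 for ventricle against atria, the same as without it. Both tissues came from the same animals. Replicate 3 was the only library with high Xist in 5 cohorts of each tissue and so the only female of the cohort, the same animal in both. For the others the labels do not tie numbers to animals: correlations of same-numbered deviations were 0.041 to 0.257 over the 18 pairs of tissues, while in 5 of 6 cohorts every library correlated best with its own number in the other tissue. With tissues permuted within cohort and replicate number, or within that 1 female and otherwise within cohorts (both added after seeing the data), 8 of the 13 shares passed, as many as without pairing. Sets of 3 libraries and the division of reads with nuclear copies limit what can be resolved for mt-Co2, mt-Atp6, mt-Nd3, mt-Co3 and mt-Nd4l.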
